A study of Mus musculus with 27 samples.

Results

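The mitochondrial genome is a small circle of DNA that lies outside the nucleus and carries its own set of genes. Its genes were taken here as every row of the count tables whose symbol starts with mt-, which gave 26 of 22855 rows in the table of cardiac fibroblasts and the same 26 in the table of whole hearts. Of these, 13 code for proteins, 2 for ribosomal RNAs (rRNA), and 11 for transfer RNAs (tRNA). The annotation used here, GENCODE M21 on the genome build GRCm38, places 37 genes on this genome, 22 of them for tRNA, and the 11 remaining tRNA genes were not analysed here. RNA-Seq had been performed on polyA RNA of C57BL/6 mice, for which the sample labels give no treatment and no transgene, at 5 ages, which were postnatal day 1, then 4 and 14 weeks, and then 1 and 1.5 years. Cardiac fibroblasts, the matrix-producing cells of the heart, were sorted by flow cytometry for the surface antigen PDGFRα, with 3 samples at postnatal day 1, 3 at 4 weeks, and 2 at each later age. Whole hearts, which hold cardiomyocytes together with every other cell type, gave 3 samples at each age. The series' design text speaks of myocardial infarction, which no sample label gives. The fibroblasts are thus the cells that carry 1 antigen after digestion of the ventricles, and the hearts are a mixture.

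The proteins made from this genome are core subunits of the respiratory chain and of ATP synthase. The mt-Nd genes serve complex I, mt-Cytb complex III, the mt-Co genes complex IV, and the mt-Atp genes ATP synthase, whereas every subunit of complex II and most subunits of the other complexes come from nuclear genes. Both strands are transcribed as long RNAs that are cut mainly at the tRNAs between the genes, after which most messenger RNAs and the rRNAs receive short poly(A) tails. Cardiomyocytes are among the cells richest in mitochondria, and the heart turns to oxidative metabolism after birth.

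Parts of this genome also lie as copies in the nuclear chromosomes, which bears on what a read count can show. A read that maps equally well to 2 places is left out by the counting mode the authors used. The start of mt-Co2, a subunit gene of complex IV at chrM:7013-7077 (plus strand, exonic), is printed with the same stretch of its annotated copies Gm28661 at chr1:24615501-24615565 (minus strand) and Gm13341 at chr2:22587898-22587962 (minus strand). Capitals mark the bases of mt-Co2 and Gm13341 that differ from each other. The stretch has 65 bases, the length of a read.
mt-Co2: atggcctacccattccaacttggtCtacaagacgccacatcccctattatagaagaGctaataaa
Gm28661: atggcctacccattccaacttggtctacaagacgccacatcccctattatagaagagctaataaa
Gm13341: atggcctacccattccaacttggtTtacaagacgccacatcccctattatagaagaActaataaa

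Over its whole annotated length of 681 bases, Gm28661 did not differ from mt-Co2. Gm13341, with 672 bases, differed at 28 of 684 aligned positions, which include bases that it lacks. The copies on chromosome 1 form a block of 7 annotated pseudogenes at chr1:24611535-24616197. Within it Gm10925 matched mt-Atp6, Gm28437 matched mt-Co3, Gm10222 matched mt-Nd4l, and Gm28439 matched the first 876 bases of mt-Nd4, each without a differing base. Gm28438 differed from mt-Nd3 by T3C, counted from the start of the gene. The block begins inside mt-Co1, at base 1054 of the gene, where Gm29216 differs at 6 of 492 bases. Those 6 bases, in capitals, stand near its edge (mt-Co1 at chrM:6381-6445, Gm29216 at chr1:24616133-24616197, minus strand).
mt-Co1: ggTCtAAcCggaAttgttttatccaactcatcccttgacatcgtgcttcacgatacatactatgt
Gm29216: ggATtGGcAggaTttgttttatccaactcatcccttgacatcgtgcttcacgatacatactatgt

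The ends of the coding sequences also matter where poly(A) RNA is selected. Of the 13 protein genes, mt-Co3, mt-Nd4, and mt-Cytb were annotated with an incomplete last codon, a single T, which is known to be completed to a stop codon by the poly(A) tail. The last 30 bases of these genes are shown beside those of mt-Co1 and mt-Nd5, which end on a complete TAA. The last codon, or the part of it that is encoded, is in capitals.
mt-Co1: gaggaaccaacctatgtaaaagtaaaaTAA
mt-Nd5: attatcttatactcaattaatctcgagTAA
mt-Co3: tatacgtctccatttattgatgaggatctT
mt-Nd4: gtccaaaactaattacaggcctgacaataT
mt-Cytb: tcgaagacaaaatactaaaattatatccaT

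The level of the protein genes, given as CPM, the counts of a gene scaled to a common library total, per kilobase of gene, fell into a high and a near-zero set. Means weight each age equally. In cardiac fibroblasts the mean was 9463 for mt-Co1, 7379 for mt-Cytb, 6213 for mt-Nd1, 3572 for mt-Nd2, 2537 for mt-Nd5, and 2048 for mt-Nd4. In whole hearts the same genes had means of 55654, 36195, 36041, 18111, 12987, and 11229 CPM per kilobase. mt-Nd6, a complex I gene and the only protein gene on the minus strand (chrM:13552-14070), was far lower, at 53.3 in fibroblasts and 476 in hearts. The other 6 protein genes did not exceed 4.99 CPM per kilobase in fibroblasts (mt-Co2) or 6.25 in hearts (mt-Nd3).

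These 6 near-zero genes are mostly those whose sequence the nuclear block repeats. Of the stretches of read length that each gene holds, 617 of 620 in mt-Co2, 614 of 617 in mt-Atp6, 719 of 720 in mt-Co3, 278 of 284 in mt-Nd3, and 230 of 233 in mt-Nd4l also occurred in another annotated transcript. The sixth, mt-Atp8, had none among 140, yet its counts stayed between 0 and 86 per library. In the nuclear block, 233 unannotated bases separate Gm28661 from Gm10925, where mt-Atp8 lies in the mitochondrial genome. mt-Nd4 shared 812 of 1314 stretches and mt-Co1 656 of 1481, so that their levels rest on the remainder. mt-Nd1, mt-Cytb, mt-Nd6, and mt-Rnr1 shared none. Levels per kilobase include shared stretches, and scaling to unshared stretches only changed the order. In fibroblasts mt-Nd4 then ranked 4 among the protein genes, mt-Nd2 5, mt-Co3 6, and mt-Nd5 7. mt-Nd6 ranked 12 there, below every near-zero gene but mt-Atp8. In hearts mt-Nd4 ranked 4, mt-Nd2 5, mt-Nd5 6, mt-Co3 7, and mt-Nd6 8. The rank of mt-Co3 rests on 1 unshared stretch, and near-zero here refers to the level per kilobase. Whether the repeated sequence sets the low counts was not tested, and the split into 7 well-counted and 6 near-zero protein genes was made after the values were seen.

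**Figure D1:**
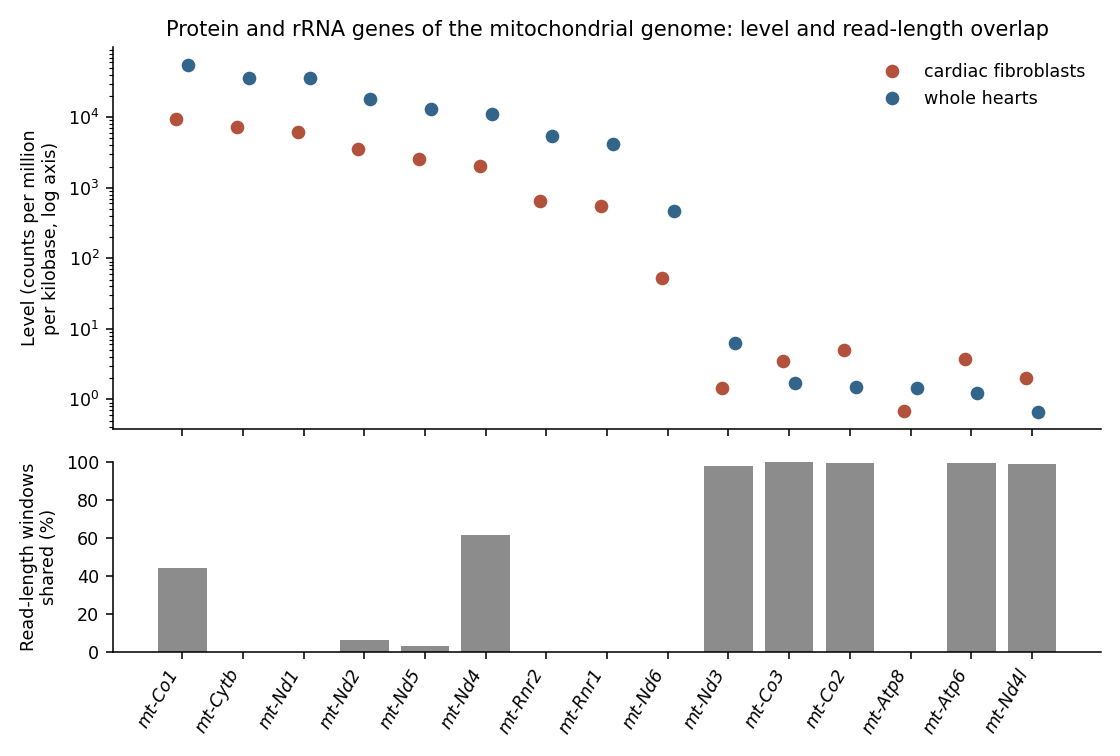
Mean level of each protein and rRNA gene (top, CPM per kilobase on a log axis). Below it stands the share of its read-length stretches that occur in another annotated transcript (bottom, %). Means cover 12 fibroblast and 15 heart libraries and weight each age equally. mt-Co2, mt-Atp6, mt-Co3, mt-Nd3, and mt-Nd4l combine near-zero levels with almost complete sharing, and mt-Atp8 is near zero without any.

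Total counts were between 54615898 and 76758831 per fibroblast library and between 46091271 and 67984404 per heart library. Counting error in a library's mitochondrial share was thus at most 0.0137 percentage points (95% exact binomial interval). The labelled tissues carried their markers. The 8 fibroblast markers summed to between 37210 and 71813 CPM in the sorted cells and between 1621 and 3468 in whole hearts, and the 12 cardiomyocyte markers to at least 71108 CPM in hearts and at most 1090 in the sorted cells. Sex is not among the labels. Xist, expressed from the inactive X chromosome, was at most 0.490 CPM in the hearts and 0.287 CPM in the fibroblasts of 14 weeks and 1 year. At 1.5 years Xist was between 31.1 and 396 CPM and the Y-linked Ddx3y at most 0.392 CPM, while Ddx3y was at least 30.9 CPM at 14 weeks and 1 year. At postnatal day 1 and 4 weeks both were present, Xist between 147 and 599.5 CPM in fibroblasts and Ddx3y between 25.1 and 50.5. Xist was between 183 and 470.4 CPM in hearts of postnatal day 1 and between 6.55 and 148 at 4 weeks, lower without overlap, with Ddx3y between 1.73 and 39.2. Sex and age thus cannot be told apart in any comparison of 1 of these 3 sets of ages with another. The hearts of postnatal day 1 and 4 weeks may also differ in their make-up by sex, which the labels do not give. In whole hearts, fewer cells of a type and less RNA per cell cannot be told apart either.

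Mitochondrial genes took a larger part of all counts in whole hearts than in cardiac fibroblasts at each age. In cardiac fibroblasts the share was 9.05%, 9.18%, and 6.15% at postnatal day 1, and 1.88%, 2.09%, and 3.73% at 4 weeks. It was 3.84% and 2.98% at 14 weeks, 1.74% and 1.78% at 1 year, and 2.20% and 7.83% at 1.5 years. The samples of postnatal day 1 thus lay above those of 4 weeks without overlap, and the 2 samples of 1.5 years stood far apart. In whole hearts the share was 12.03%, 10.8%, and 13.7% at postnatal day 1, and 26.7%, 14.9%, and 20.1% at 4 weeks. It was 29.6%, 34.5%, and 27.7% at 14 weeks and 33.0%, 33.2%, and 29.2% at 1 year. At 1.5 years the hearts had 26.5%, 18.5%, and 18.7%, all below the lowest heart of 14 weeks.

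The direction from postnatal day 1 to 4 weeks was opposite in the tissues. The mean share in cardiac fibroblasts was 8.13% ± 1.71% and then 2.57% ± 1.01% (mean ± SD, n = 3), 3.16-fold lower. In whole hearts it was 12.2% ± 1.44% and then 20.6% ± 5.95% (n = 3), 1.69-fold higher. With 3 samples against 3 the exact permutation test cannot go below p = 0.1, which it reached in both tissues. Over all 5 ages, the share differed in whole hearts (exact permutation test of the between-age sum of squares, p = 0.000987), and left out in turn, no library raised that p above 0.00571. In cardiac fibroblasts the same exact permutation test gave p = 0.0409 over the ages, which was lost in 9 of 12 fits without 1 library. Each library of postnatal day 1, 14 weeks, and 1 year and replicates 1 and 2 of 4 weeks were such libraries, with exact permutation p up to 0.118.

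At 1.5 years either fibroblast library moved the mean greatly. Without replicate 5 the log2 ratio of 1.5 years to postnatal day 1 was -1.88 in place of -0.70, and without replicate 4 it was -0.054. Replicate 5 also had the higher sum of the 12 cardiomyocyte markers of its age, 173 CPM against 31.0 in replicate 4, of the 9 endothelial markers, 1242 against 293 CPM, and of the adipocyte markers (2 of 5 in the table), 326 against 38.9 CPM. At 4 weeks the library with the highest mitochondrial share had 253 CPM of the cardiomyocyte markers and the others 98.6 and 90.2, and 2052 CPM of the endothelial markers against 735 and 621, and at 14 weeks the cardiomyocyte sums were 163.63 and 122.75 CPM in the same order as the shares. At postnatal day 1 all 12 markers were detected and summed to 982, 1003, and 1090 CPM, or 1.302% to 1.445% of the mean in hearts of that age, the highest sum being that of the library with the lowest share. Up to 3 of the 12 markers were at 0 at 1.5 years. The part of RNA from these cell types in the fibroblast shares was not tested.

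**Figure D2:**
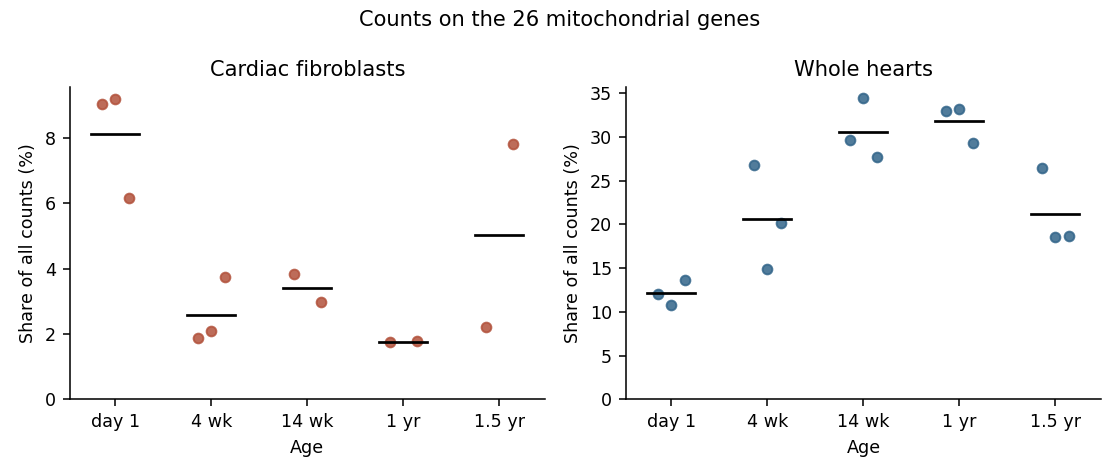
Share of all counts on the 26 mitochondrial genes (%, y axis) at each age, with a point per library and a bar at the mean, in cardiac fibroblasts (left) and whole hearts (right, on a wider scale). Fibroblasts of postnatal day 1 lie between 6.15% and 9.18%, above all of 4 weeks, while hearts rise from between 10.8% and 13.7% to at least 27.7% at 14 weeks and 1 year.

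Between the tissues, the mean share in whole hearts was 1.50-fold that of fibroblasts at postnatal day 1, 8.01-fold at 4 weeks, 8.97-fold at 14 weeks, 18.1-fold at 1 year, and 4.23-fold at 1.5 years. The samples of the tissues did not overlap at any age. The mean log2 difference over the ages was 2.66 (exact permutation test of tissue within age, two-sided, p = 2.5e-06, the smallest it can give). Divided by class, protein genes held between 1.66% and 8.92% of the counts in fibroblasts and between 10.3% and 32.9% in hearts. The rRNA genes held between 0.0591% and 0.399% in fibroblasts and between 0.499% and 2.01% in hearts, and the 11 tRNA genes between 2.19 and 18.8 CPM and between 35.4 and 120.5 CPM.

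Gene by gene, the well-counted protein genes of cardiac fibroblasts fell between postnatal day 1 and 4 weeks. mt-Nd1, a complex I subunit at chrM:2751-3707, had 14374, 17298, and 12691 CPM at postnatal day 1 and 2122, 2619, and 4855 at 4 weeks. The ages did not overlap, and the log2 fold change was -2.12 (SE 0.42, adjusted p = 0.00409, edgeR's quasi-likelihood F test), or 4.35-fold lower. mt-Co1, the catalytic subunit of complex IV at chrM:5328-6872, had 32169, 31878, and 20536 CPM and then 6920, 7520, and 13116 CPM (log2 fold change -1.53, SE 0.38, adjusted p = 0.0148). mt-Cytb, the subunit of complex III at chrM:14145-15288, had 17693, 17395, and 11639 CPM and then 3884, 4201, and 7320 CPM (log2 fold change -1.51, SE 0.38, adjusted p = 0.0162). For each of these genes the highest sample of 4 weeks was replicate 3 and stayed below the lowest of postnatal day 1.

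Of the 13 protein genes, 7 were lower at 4 weeks at an adjusted p under 0.05 and 0 were higher, where 6.20% of all genes tested were lower and 9.28% higher. Besides these genes, they were the complex I genes mt-Nd2, mt-Nd4, mt-Nd5, and mt-Nd6, with log2 fold changes between -1.42 and -1.38. The median over the 13 was -1.40, against 0.00391 over all genes. mt-Nd6 had 71.2, 53.2, and 37.3 CPM at postnatal day 1 and 16.6, 18.5, and 21.6 at 4 weeks. The near-zero genes had at most 95 counts in any library of these ages and did not pass the test. The count of 7 rested on a few libraries, since it was 1 (mt-Nd1) without replicate 1 or 2 of 4 weeks and 3 without replicate 1 or 2 of postnatal day 1. Beside this fall, the summed cardiomyocyte markers went from between 982 and 1090 CPM to between 90.2 and 253, and the 8 leukocyte markers from between 105 and 212 to between 270 and 437. The 8 fibroblast markers went from between 37210 and 45171 CPM to between 58232 and 71813. Those of smooth muscle and pericytes went from between 292 and 439 to between 109 and 193. Their part in the result was not tested.

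In whole hearts the same step was a rise. mt-Co1 had 38842, 35608, and 48634 CPM at postnatal day 1 and 94708, 71962, and 69766 at 4 weeks, with no overlap (log2 fold change 1.46, SE 0.20, adjusted p = 5.4e-05, edgeR's quasi-likelihood F test). mt-Cytb had 19157, 18374, and 24062 CPM and then 45802, 20657, and 35784, so that replicate 2 of 4 weeks lay within the range of postnatal day 1 (log2 fold change 1.25, SE 0.27, adjusted p = 0.00337). mt-Nd1 had 27352, 22323, and 23517 CPM and then 30278, 17244, and 26405. Its ages overlapped and it did not pass the test (log2 fold change 0.53, SE 0.24, adjusted p = 0.142).

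The 5 protein genes that rose in hearts were mt-Co1, mt-Cytb, mt-Nd2, mt-Nd4, and mt-Nd5, with log2 fold changes from 1.15 to 1.62, where 12.1% of all genes tested were higher and 6.10% lower. mt-Nd6 had 171, 116, and 141 CPM at postnatal day 1 and 302, 124, and 171 at 4 weeks, and did not pass (log2 fold change 1.01, SE 0.36, adjusted p = 0.0649). Without 1 library the count lay between 4 and 7. Without replicate 2 of 4 weeks, mt-Nd1 (adjusted p = 0.0391) and mt-Nd6 (adjusted p = 0.0243) passed as well, and mt-Nd6 also did without replicate 2 of 14 weeks (adjusted p = 0.0486). mt-Nd4 lost its call without replicate 1 of 4 weeks or replicate 1 or 2 of postnatal day 1, with adjusted p up to 0.104. Scaled by library size only, 4 genes passed and mt-Nd1 had a log2 fold change of 0.01, but this scaling also moved the median of all genes to -0.60 from -0.09. The median of the 13 genes was 1.27, which fell on the near-zero mt-Co3. The cardiomyocyte markers went from between 71108 and 80661 CPM to between 86804 and 106822 in the same hearts, and the leukocyte markers from between 70.1 and 88.7 to between 298 and 415. Their part in the rise was not tested.

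That the tissues moved apart was tested as the change in whole hearts minus the change in fibroblasts. It passed for the 7 well-counted protein genes, where 3.96% of the 20650 genes tested had a difference above 0 and 3.18% one below 0. The log2 difference was 3.04 for mt-Nd2, 3.00 for mt-Co1, 2.87 for mt-Nd5, 2.78 for mt-Cytb, 2.67 for mt-Nd1, 2.56 for mt-Nd4, and 2.44 for mt-Nd6, with adjusted p from 0.000127 to 0.00867 (edgeR's quasi-likelihood F test). Both rRNA genes passed as well, mt-Rnr1 with 4.02 (adjusted p = 2.8e-06) and mt-Rnr2 with 2.48 (adjusted p = 0.00519). These calls were kept in each of 12 fits without 1 library of the ages compared, but mt-Nd5 did not pass with a replicate block (adjusted p = 0.0522, edgeR).

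**Figure D3:**
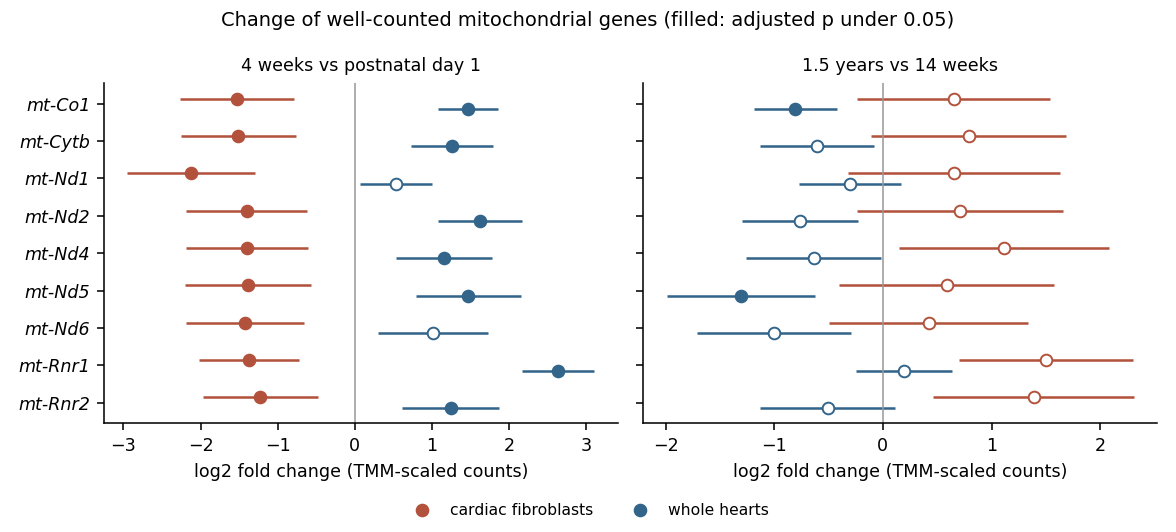
Log2 fold change (x axis, with 95% interval) of the 7 well-counted protein genes and both rRNA genes, for 4 weeks against postnatal day 1 (left) and 1.5 years against 14 weeks (right). On the left fibroblasts (red) lie between -2.12 and -1.22 and hearts (blue) between 0.53 and 2.64, and on the right only mt-Co1 and mt-Nd5 in hearts are filled, which marks an adjusted p under 0.05.

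After 4 weeks fewer mitochondrial genes changed. In whole hearts mt-Co1 rose again to 125996, 122927, and 112829 CPM at 14 weeks (log2 fold change 0.85, SE 0.20, adjusted p = 0.0376, edgeR's quasi-likelihood F test), the only protein gene past the threshold where 0.756% of all genes were higher and 0.850% lower. This call was kept in only 6 of 15 fits without 1 library. Those without a library of 14 weeks, replicate 2 or 3 of 4 weeks, replicate 1 or 2 of 1 year, replicate 2 of 1.5 years, or replicate 1 of postnatal day 1 lost it, with adjusted p up to 0.19. In the same hearts the endothelial markers went from between 1152 and 1202 CPM to between 590 and 676. The 7 markers of smooth muscle and pericytes went from between 1175 and 1685 to between 750 and 822. A higher mitochondrial share by itself lowers the CPM of nuclear markers, and the part of these cell types was not tested. mt-Cytb and mt-Nd1 had log2 fold changes of 0.88 and 0.93 for this step and did not pass. From 14 weeks to 1 year, 0 of the 13 protein genes passed in hearts by edgeR, by DESeq2, or at an unadjusted p under 0.05, where 0.389% of all genes were higher and 0.583% lower.

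From 14 weeks to 1.5 years, mt-Co1 and mt-Nd5 fell in whole hearts. mt-Co1 was between 112829 and 125996 CPM at 14 weeks and had 90074, 81719, and 60679 CPM at 1.5 years (log2 fold change -0.81, SE 0.20, adjusted p = 0.013, edgeR's quasi-likelihood F test). mt-Nd5, a complex I subunit at chrM:11742-13565, had 29823, 39371, and 28166 CPM and then 21842, 11529, and 10967 (log2 fold change -1.31, SE 0.35, adjusted p = 0.0207). In both genes all hearts of 1.5 years were below all hearts of 14 weeks. These were 2 of 13 protein genes, where 7.86% of all genes were lower and 4.91% higher. Among the others, mt-Nd1 had a log2 fold change of -0.30, mt-Cytb -0.61, mt-Nd4 -0.64, mt-Nd2 -0.76, and mt-Nd6 -1.001, none past the threshold.

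The count of 2 depended on single hearts. It was 0 without replicate 2 of 14 weeks or replicate 3 of 1.5 years, 1 without replicate 2 of 1.5 years, and 4 without replicate 1 of 1.5 years or replicate 1 of 4 weeks. Without replicate 2 of 14 weeks mt-Co1 had a log2 fold change of -0.74 (adjusted p = 0.0548) and mt-Nd5 one of -1.09 (adjusted p = 0.0915). Beside the fall, the cardiomyocyte markers went from between 77485 and 78029 CPM to between 88953 and 120473. CPM is a part of all counts, so that a lower mitochondrial share by itself raises the CPM of nuclear markers. The fibroblast markers went from between 1621 and 2243 CPM to between 2748 and 3046, the leukocyte markers from between 206 and 253 to between 411 and 568, and the red cell markers (5 of 6 in the table) from between 233 and 328 to between 650 and 1625. Their part was not tested.

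Hearts of 1.5 years nevertheless stayed above those of postnatal day 1. In that comparison mt-Co1, mt-Cytb, mt-Nd1, mt-Nd2, and mt-Nd4 were higher, with log2 fold changes from 1.17 to 1.70, where 15.6% of all genes were higher and 16.3% lower. mt-Nd5 (log2 fold change 0.74) and mt-Nd6 (0.90) did not pass. In cardiac fibroblasts 0 of 13 protein genes passed in this comparison by edgeR's quasi-likelihood F test, 2 had an unadjusted p under 0.05, and DESeq2 called 1, where 6.46% of all genes were lower and 9.86% higher. Without replicate 5 of 1.5 years, the library with a share of 7.83%, 7 protein genes were called. Across all ages, 11 of 13 protein genes changed in fibroblasts (19.9% of all genes) and 7 in hearts (34.3%). The count in fibroblasts was 7 without either library of 1 year, replicate 2 of 4 weeks, or replicate 1 of postnatal day 1, and 6 without replicate 2 of postnatal day 1.

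In adult fibroblasts the protein genes called in the fit over all ages were near-zero ones. With only the ages compared in the fit, 11 protein genes were called for 1 year against 14 weeks, well-counted ones among them. That fit called 2004 of all 16482 genes tested, against 334 of 18759 in the fit over all ages. mt-Co2 had at most 13 counts in any fibroblast library of the other ages, but 1120 and 897 at 14 weeks. mt-Atp6, a subunit of ATP synthase, had at most 18 counts at the other ages and 818 and 655 at 14 weeks, and mt-Co3 at most 95 and then 873 and 678. All passed as higher at 14 weeks than at 4 weeks, where 1.79% of all genes were higher and 2.08% lower. mt-Co2 was lower at 1 year than at 14 weeks (0.474% of all genes lower and 1.31% higher), and mt-Co2 and mt-Atp6 were lower at 1.5 years than at 14 weeks (0.816% of all genes lower and 1.91% higher).

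Identical nuclear copies had their highest fibroblast counts in the same 2 libraries. Gm28661 had 1170 and 1161 counts at 14 weeks and at most 154 at other ages, Gm10925 had 1256 and 1293 against at most 219, and Gm28439 had 630 and 576 against at most 94. The near-zero mt-Nd4l likewise had 187 and 173 counts at 14 weeks and at most 3 at the other ages. Gm28437, the copy of mt-Co3, had 471 and 432 counts at 14 weeks, at most 88 at 4 weeks, and up to 316 at postnatal day 1 and 282 at 1.5 years. In each of the 7 well-counted genes the ranges of 14 and 4 weeks overlapped, mt-Nd1 having 4529 and 3501 CPM at 14 weeks. mt-Co1 had 14059 and 10741 CPM at 14 weeks, and mt-Nd6 31.2 and 20.9, the higher value in both being above all of 4 weeks. The labels name no difference in preparation for these libraries. The rise at 14 weeks was called for 0 genes without replicate 4 of 14 weeks and for 1 (mt-Co2) without replicate 6 of 14 weeks or replicate 1 of 4 weeks. Without replicate 2 or 3 of 4 weeks, mt-Co3 was lost. The call of mt-Co2 at 1 year was lost without either library of 14 weeks or replicate 4 of 1 year. The fall to 1.5 years was called for 0 genes without either library of 14 weeks or replicate 5 of 1.5 years, and for 1 without replicate 4 of 1.5 years or either library of 1 year.

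For the lowest protein genes by level, mt-Atp8 in fibroblasts and mt-Nd4l in hearts, counts were few. In fibroblasts mt-Atp8 had 4, 0, and 1 counts at postnatal day 1, and 0, 1, and 0 at 4 weeks. It had 37 and 40 counts at 14 weeks, 0 and 1 at 1 year, and 1 and 2 at 1.5 years. In hearts mt-Nd4l had between 0 and 52 counts per library, the highest at 4 weeks and 1 year. Neither passed the test from postnatal day 1 to 4 weeks, from 4 to 14 weeks, or from 14 weeks to 1 year. The step from 1 year to 1.5 years was not tested.

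The rRNA genes, the RNA core of the mitochondrial ribosome, kept a different course from the protein genes in fibroblasts. mt-Rnr1 (chrM:70-1024) is the rRNA of the small subunit. It had 589, 918, and 518 CPM at postnatal day 1, 186, 189, and 362 at 4 weeks, and 452 and 295 at 14 weeks. It reached 313 and 465 CPM at 1 year and 641 and 1217 at 1.5 years. mt-Rnr2 (chrM:1094-2675), of the large subunit, had 1319, 1716, and 1102 CPM, then 404, 427, and 835, then 1005 and 604, then 486 and 634, and then 927 and 2773. Both fell from postnatal day 1 to 4 weeks, mt-Rnr1 by 1.37 (SE 0.33, adjusted p = 0.0134) and mt-Rnr2 by 1.22 (SE 0.38, adjusted p = 0.048, edgeR's quasi-likelihood F test) on the log2 scale. mt-Rnr1 lost its call without replicate 1 or 2 of 4 weeks or replicate 2 of postnatal day 1 (adjusted p up to 0.0632). mt-Rnr2 lost it in 7 of 12 fits, those without a library of postnatal day 1 or of 1 year or replicate 1 or 2 of 4 weeks (adjusted p up to 0.161).

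Within a library, the rRNA counts of fibroblasts rose against the protein gene counts. The ratio was 2.15%, 2.95%, and 2.70% at postnatal day 1, 3.24%, 3.03%, and 3.31% at 4 weeks, and 3.95% and 3.11% at 14 weeks. It was 4.81% and 6.57% at 1 year and 7.66% and 5.37% at 1.5 years, so that each library of the oldest ages was above each younger one. The ratio differed between the ages (exact permutation test of the between-age sum of squares, p = 0.00325), was 2.502-fold higher at 1.5 years than at postnatal day 1, and kept a p of at most 0.00958 without any 1 library. It held for mt-Rnr2 alone (exact permutation p = 0.0013) and for mt-Rnr1 alone (exact permutation p = 0.0122). The 1.5-year library with the high mitochondrial share, replicate 5, had the lower ratio of its age.

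In whole hearts the rRNA genes parted from each other. mt-Rnr1 had 1020, 764, and 1135 CPM at postnatal day 1 and 4509, 3343, and 4904 at 4 weeks (log2 fold change 2.64, SE 0.24, adjusted p = 7.9e-07, edgeR's quasi-likelihood F test), 6.21-fold higher. mt-Rnr2 had 5012, 4227, and 4540 CPM and then 9886, 3506, and 9374, with replicate 2 of 4 weeks below every newborn heart (log2 fold change 1.24, SE 0.32, adjusted p = 0.0116). The call of mt-Rnr2 was lost without replicate 1 of 4 weeks or replicate 2 of postnatal day 1 (adjusted p = 0.0621 and 0.0563). After 4 weeks mt-Rnr1 lay between 3900 and 6597 CPM and mt-Rnr2 between 5512 and 14556. Between 14 weeks and 1.5 years neither passed the test, with log2 fold changes of 0.19 and -0.51.

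The ratio of mt-Rnr1 to mt-Rnr2 shows this without any scaling. It was 0.203, 0.181, and 0.25 in hearts of postnatal day 1, and 0.456, 0.953, and 0.523 at 4 weeks. It then lay between 0.381 and 0.469 at 14 weeks, between 0.379 and 0.487 at 1 year, and between 0.57 and 0.824 at 1.5 years. Every newborn heart was below every older one. In fibroblasts it was between 0.447 and 0.535 at postnatal day 1 and between 0.433 and 0.733 at later ages, so that the ages overlapped. This ratio was chosen after the values were seen and is given as a description. The ratio of both rRNAs to the protein genes did not differ between ages in hearts (exact permutation p = 0.111, 1.38-fold higher at 1.5 years than at postnatal day 1). With mt-Rnr1 alone it did (log2 ratio 1.73, exact permutation p = 0.000175), and with mt-Rnr2 alone it did not (log2 ratio -0.035, exact permutation p = 0.723).

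The protein genes also differed among themselves in hearts. The ratio of mt-Nd5 to mt-Nd1, genes of the same complex that lie far apart on the same strand, was 0.423, 0.55, and 0.689 at postnatal day 1. It was 1.33, 0.769, and 0.875 at 4 weeks, between 0.792 and 0.859 at 14 weeks, and between 0.556 and 0.821 at 1 year. At 1.5 years it was 0.471, 0.416, and 0.321, below every heart of 4 weeks, 14 weeks, and 1 year. In fibroblasts it was between 0.449 and 0.771 at postnatal day 1 and between 0.924 and 1.09 at 4 weeks, then 1.07 and 1.02 at 14 weeks, 0.812 and 0.785 at 1 year, and 1.02 and 0.997 at 1.5 years. This ratio, too, was chosen after the values were seen. mt-Nd1, with the largest fall in fibroblasts among the well-counted genes from postnatal day 1 to 4 weeks, went from 18.9% ± 2.51% (SD, n = 3) of the mitochondrial protein gene counts at postnatal day 1 to 12.7% ± 0.925% (n = 3) at 4 weeks. In hearts its part was 21.2% ± 3.03% and 12.8% ± 1.20% (n = 3) at these ages and 18.1% ± 2.01% (n = 3) at 1.5 years.

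**Figure D4:**
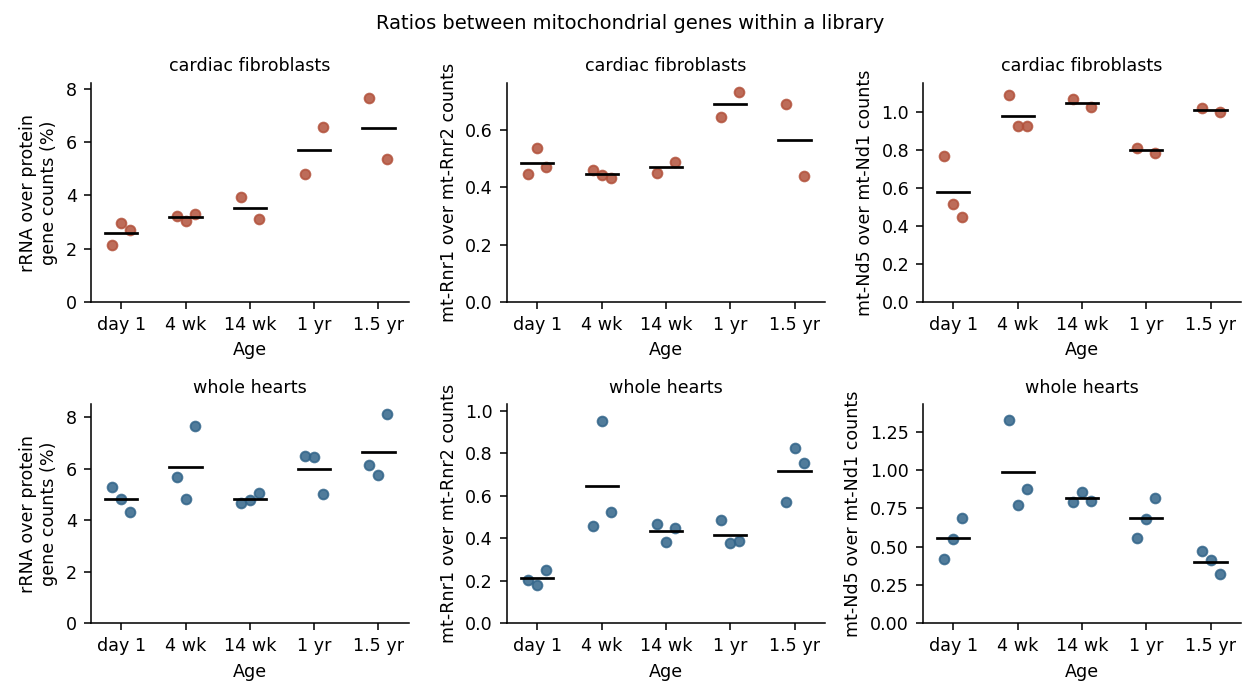
Count ratios within each library (points, with a bar at the mean) by age in cardiac fibroblasts (top) and whole hearts (bottom): rRNA over protein genes (%, left), mt-Rnr1 over mt-Rnr2 (middle), and mt-Nd5 over mt-Nd1 (right). The fibroblast rRNA ratio is at least 4.81% at 1 year and 1.5 years and at most 3.95% before, newborn hearts have an mt-Rnr1 ratio of at most 0.25, and the mt-Nd5 ratio of hearts of 1.5 years is at most 0.471.

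The tRNA genes, hardly longer than a read, had few counts. With each age weighted equally, the highest means in fibroblasts were 1.81 CPM for mt-Ts1 (serine), 1.53 for mt-Tw (tryptophan), and 1.52 for mt-Tt (threonine). In hearts they were 19.9 for mt-Tw, 14.1 for mt-Ti (isoleucine), and 12.9 for mt-Ts1. mt-Ti, mt-Tw, and mt-Ts1 overlap a protein gene and mt-Tm, mt-Te, and mt-Tt adjoin one directly, and the counts do not separate uncut precursors from mature tRNAs. Of the 11, 7 lie on the minus strand, opposite most protein genes, and whether counting used the strand is not given in the sources used here. The sequences of mt-Ti (chrM:3706-3774, plus strand) and mt-Tt (chrM:15289-15355, plus strand), which moved in opposite directions in hearts, show how close the whole gene is to a read of 65 bases.
mt-Ti: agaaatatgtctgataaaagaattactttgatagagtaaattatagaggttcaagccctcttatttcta
mt-Tt: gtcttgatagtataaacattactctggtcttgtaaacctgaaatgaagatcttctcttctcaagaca

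In whole hearts mt-Ti had 1.77, 0.41, and 0.363 CPM at postnatal day 1 and 15.3, 12.7, and 20.4 at 4 weeks (log2 fold change 4.74, SE 0.57, adjusted p = 1.6e-05, edgeR's quasi-likelihood F test). It lay between 8.69 and 21.5 CPM from then on. mt-Tt, which follows directly on mt-Cytb, had 26.5, 18.8, and 14.2 CPM and then 3.75, 7.02, and 3.71 (log2 fold change -1.53, SE 0.34, adjusted p = 0.00389). No newborn heart overlapped with the hearts of 4 weeks in either gene. mt-Tt rose to 9.60, 14.0, and 13.5 CPM at 14 weeks (log2 fold change 1.62, SE 0.34, adjusted p = 0.0222). This call was lost without replicate 2 or 3 of 14 weeks or replicate 1 or 3 of 4 weeks, with adjusted p up to 0.131.

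Of the 11 tRNA genes, 5 rose in hearts from postnatal day 1 to 4 weeks (mt-Ti, mt-Tq for glutamine, mt-Tm for methionine, mt-Te for glutamate, and mt-Ts1) and only mt-Tt fell, where 12.1% of all genes were higher and 6.10% lower. The call of mt-Te was kept in only 6 of 15 fits without 1 library, being lost without any library of 14 weeks or 1 year, replicate 1 of 4 weeks, or replicate 1 or 3 of postnatal day 1 (adjusted p up to 0.275). That of mt-Tm was lost without replicate 1 of 4 weeks or replicate 3 of postnatal day 1 (adjusted p = 0.107 and 0.0518). mt-Ts1 went from 6.82, 4.91, and 3.97 CPM to 11.0, 15.1, and 11.7, and mt-Tw had 17.7, 7.60, and 10.6 CPM and then 23.5, 6.19, and 17.5 without passing. Between postnatal day 1 and 1.5 years, 7 of 11 were higher and 0 lower (15.6% and 16.3% of all genes). From 14 weeks to 1.5 years mt-Ta, for alanine, fell from 155, 89, and 35 counts to 0, 0, and 1 (adjusted p = 0.0365), a call that was lost in 8 of 15 fits without 1 library. They were those without a heart of 14 weeks or 1.5 years or replicate 1 or 2 of 1 year.

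In fibroblasts mt-Tt alone passed from postnatal day 1 to 4 weeks, with 319, 586, and 0 counts and then 0, 0, and 0 (adjusted p = 0.0179, edgeR's quasi-likelihood F test). Since 1 newborn library was at 0 as well, no fold is given. mt-Ts1 had 346, 206, and 281 counts at postnatal day 1 and 348, 42, and 113 at 4 weeks, and mt-Tw between 1 and 260 at the former age and between 30 and 94 at the latter. Across the ages, 0 of 11 tRNA genes passed in fibroblasts by edgeR, 1 did at an unadjusted p under 0.05, and DESeq2 called 1.

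Nuclear genes that work with this genome were described from lists of their known roles. In whole hearts from postnatal day 1 to 4 weeks, 17 of 20 nuclear-encoded partner subunits of the same complexes rose and 0 fell, where 12.1% of all genes were higher and 6.10% lower. Their median log2 fold change was 0.79 and that of all genes -0.09. Uqcrc1, a core subunit of complex III, rose from 1065, 916, and 978 CPM to 1353, 2124, and 1502 (log2 fold change 1.26, SE 0.19, adjusted p = 0.000133, edgeR's quasi-likelihood F test). Of the complex II genes, none of which lies on the mitochondrial genome, 3 of 4 rose (median 0.92). Of the machinery for mitochondrial DNA and RNA, 0 of 10 genes of transcription passed by edgeR (3 at an unadjusted p under 0.05 and 2 by DESeq2), while 1 of 7 of DNA replication (Polg, log2 fold change 0.64) and 2 of 15 of RNA processing and stability (Fastk, 0.94, and Lrpprc, 0.58) rose, shares near that over all genes.

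Tfam, which packages mitochondrial DNA and starts its transcription, had 38.4, 42.3, and 44.2 CPM in newborn hearts and 25.9, 31.9, and 39.2 at 4 weeks (log2 fold change 0.14, adjusted p = 0.634, edgeR's quasi-likelihood F test on scaled counts). Polrmt, the mitochondrial RNA polymerase, had 32.6, 35.6, and 33.6 CPM and then 29.9, 38.9, and 49.5 (log2 fold change 0.72, adjusted p = 0.052). CPM is a part of all counts, mitochondrial ones included, whereas the fold change is on TMM-scaled counts, and for Tfam the signs of the differences are opposite. Among 8 regulators, the orphan receptor genes Esrra (log2 fold change 0.81) and Esrrb (1.67, SE 0.21, adjusted p = 2.4e-05) rose. Ppargc1a, a coactivator of mitochondrial biogenesis, had 178, 157, and 176 CPM and then 125, 54.5, and 108 (log2 fold change -0.31, adjusted p = 0.619).

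From 14 weeks to 1.5 years in hearts, 8 of 20 partner subunits rose and 1 (Ndufs1) fell, with a median log2 fold change of 0.44, where 4.91% of all genes were higher and 7.86% lower. Of the 13 mitochondrial protein genes 0 rose and 2 fell, and the difference between the lists was not tested. Those that rose included Cox4i1 (log2 fold change 1.04), Cox7c (1.001), and Cox6c (0.86) of complex IV. Lrpprc, which stabilizes mitochondrial messenger RNAs, fell from 168, 168, and 174 CPM to 97.8, 86.0, and 77.5 (log2 fold change -1.13, SE 0.17, adjusted p = 0.000835, edgeR's quasi-likelihood F test). Elac2, which cuts precursors behind the tRNAs, and Fastkd1 fell as well, the others of the 15 RNA processing genes not passing. Ppargc1a fell from 78.0, 83.2, and 97.5 CPM to 62.6, 19.6, and 25.01 (log2 fold change -1.43, SE 0.36, adjusted p = 0.0161), with Gabpa and Esrrg the other regulators that fell. Polg and Twnk fell among the 7 replication genes, and 0 of 10 transcription genes passed in either direction by edgeR, by DESeq2, or at an unadjusted p under 0.05. Tfam had a log2 fold change of -0.01 and Polrmt one of -0.44. Of the complex II genes, Sdhc and Sdhd rose and Sdha fell. Against postnatal day 1, all 20 partner subunits and all 4 complex II genes were called higher at 1.5 years (15.6% of all genes higher). So were 4 of 10 transcription genes, Tfam among them (log2 fold change 0.55, adjusted p = 0.0161, edgeR's quasi-likelihood F test on TMM-scaled counts). In CPM Tfam did not rise, with 38.4, 42.3, and 44.2 in newborn hearts and 40.8, 39.7, and 40.3 at 1.5 years. The call of Tfam thus rests on the scaling.

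**Figure D5:**
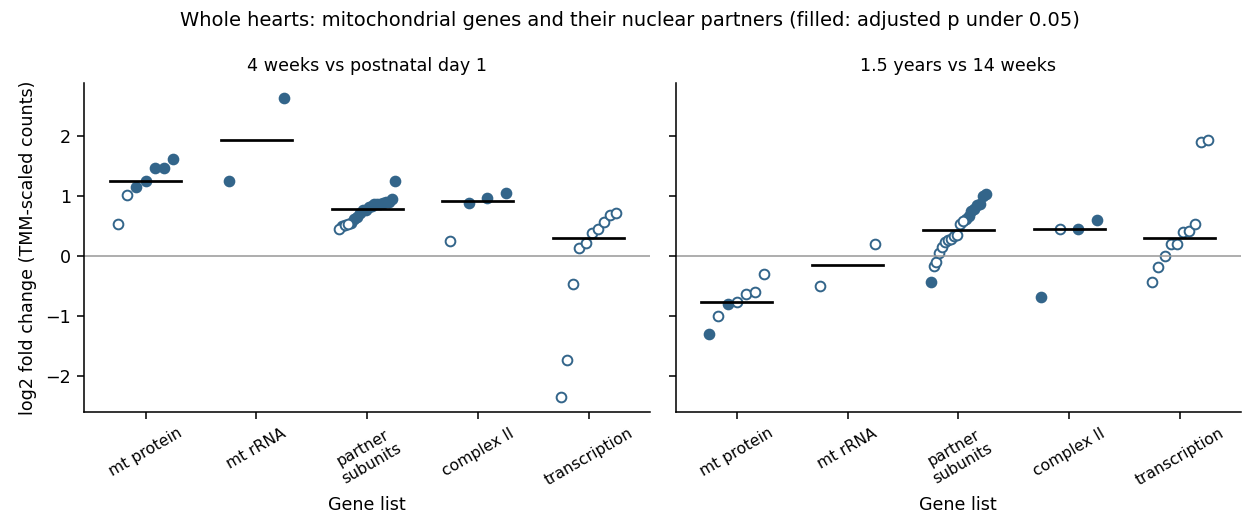
Log2 fold changes in whole hearts (y axis, a point per gene, filled at an adjusted p under 0.05, bars at medians) of the well-counted mitochondrial protein genes, the rRNA genes, and lists of nuclear genes, for 4 weeks against postnatal day 1 (left) and 1.5 years against 14 weeks (right). Of 20 partner subunits, 17 are called higher on the left, and 8 higher and 1 lower on the right, and the well-counted mitochondrial protein genes lie above 0 on the left and below 0 on the right.

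In fibroblasts 5 of 20 partner subunits fell between postnatal day 1 and 4 weeks and 0 rose (6.20% of all genes lower and 9.28% higher), with a median log2 fold change of -0.44. Cox5b, a subunit of complex IV, went from 71.9, 61.1, and 63.8 CPM to 35.2, 41.2, and 36.2 (log2 fold change -0.72, SE 0.14, adjusted p = 0.00282, edgeR's quasi-likelihood F test). Grsf1, which binds mitochondrial RNA, was the only RNA processing gene that passed, from 70.8, 58.7, and 71.4 CPM to 35.0, 53.8, and 30.6 (log2 fold change -0.67, SE 0.20, adjusted p = 0.0405). No gene of the transcription, replication, regulator, or complex II lists passed by edgeR, whereas 2 transcription genes and 1 replication gene had an unadjusted p under 0.05 and DESeq2 called 1 transcription gene, with Tfam at a log2 fold change of -0.12, Polrmt at -0.41, and Lrpprc at 0.19. Ppargc1a had at most 4.31 CPM in any fibroblast library. From 14 weeks to 1.5 years, 0 genes of these lists passed in fibroblasts by edgeR. At an unadjusted p under 0.05 there were 5 partner subunits and 3 regulators, and DESeq2 called 3 partner subunits and 1 regulator.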

How the data were processed

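The authors sequenced polyA RNA as single-end reads of 65 bases, mapped them to mm10 with STAR 2.5.3a, and deposited raw read counts per gene, without normalization. The annotation and strand setting they counted with are not given in the sources used here. The 27 libraries took their tissue and age from the labels. The members and gene lists were chosen with earlier results of these data known.

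Each tissue was fitted with edgeR 4.0.16 in R 4.3.3 (filterByExpr, TMM scaling, all ages in one quasi-likelihood fit, F test), with Benjamini-Hochberg adjustment over 18759 genes in fibroblasts and 17995 in hearts and a threshold of 0.05. The difference between tissues was an interaction term. CPM and shares use all counts, and shares and ratios were compared on the log2 scale with exact permutation tests that enumerated every allocation of the samples. The binomial intervals used scipy 1.17.1. Comparisons over consecutive ages share samples. Sequences, gene positions, and stretches of read length came from GENCODE M21 on GRCm38, with all 26 members matched. Tables and alignments used pandas 2.3.3, numpy 2.4.6, and biopython 1.88 in python 3.11.15, and plots matplotlib 3.10.9.

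Genes given with values were the 3 highest and the lowest protein gene per kilobase, both rRNA genes, mt-Nd6, members called at 1.5 years against 14 weeks, the 3 highest tRNA genes, Tfam, Polrmt, Lrpprc, Ppargc1a, and up to 2 called rises and falls of the lists per tissue at 4 weeks against postnatal day 1. Others named were chosen after their values were seen. On simulated data with 200 genes changed 4-fold, the test of 4 weeks against postnatal day 1 recovered 65% in fibroblasts (17947 genes) and 68.5% in hearts (17155 genes), and of genes changed 2-fold 31.5% and 23%. No 2 of the 24 pairs of libraries of 1 tissue and age held identical counts. The study's methods name 3 sets of fibroblasts per age, and the labels 2 from 14 weeks on. Alternatives were DESeq2 1.42.0, other scalings and filters, a 2-fold minimum, only the ages compared, a replicate block, and each library left out.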

Additional observations from a re-analysis of the deposited data

Results flagged for a closer look

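For 4 weeks against postnatal day 1, the change of 10 mitochondrial genes differed between whole hearts and cardiac fibroblasts by the interaction test across all genes (edgeR, adjusted p under 0.05). On the log2 scale, the heart change minus the fibroblast change was 4.02 for mt-Rnr1, 3.04 for mt-Nd2, 3.00 for mt-Co1, 2.87 for mt-Nd5, 2.78 for mt-Cytb, 2.67 for mt-Nd1, 2.56 for mt-Nd4, 2.48 for mt-Rnr2, and 2.44 for mt-Nd6. For mt-Tt the fitted value was 9.38, which depends on the prior count, because all fibroblast libraries of 4 weeks were at 0, and is no bound. mt-Tt fell in both tissues, whereas the 9 others rose, or had a positive value, in hearts and fell in fibroblasts.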

How the results depend on the processing

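Of 390 values of single mitochondrial genes under the alternatives planned, 360 kept their direction and side of the threshold, 28 lost their call, 2 gained one, and 0 turned. The fits without 1 library are not among these values. In those fits, heart calls at 4 weeks against postnatal day 1 were kept in 15 of 15 for mt-Co1 but in 6 of 15 for mt-Te. Libraries of different ages with the same replicate number showed little correlation in their deviations from the age mean (from -0.03 to 0.04 in fibroblasts and from -0.06 to 0.10 in hearts). Low correlations over all genes cannot exclude that the numbers mark a shared batch. Fibroblasts came from hearts that were sequenced too, but no label ties a library to its heart, and between tissues the same numbers gave correlations from -0.04 to 0.02. With the replicate block the protein genes called in fibroblasts at 4 weeks against postnatal day 1 were 2 in place of 7, and 0 for 1 year and 0 for 1.5 years against 14 weeks. Over all 18759 genes tested, the block called 2098, 0, and 20 in these comparisons, against 2903, 334, and 511 without it. The 0 mitochondrial genes against 14 weeks thus stand beside a general loss of calls. The block also lost mt-Rnr2 (adjusted p = 0.0515) and mt-Tt (0.0541) in fibroblasts at 4 weeks, mt-Te (0.0902) in hearts at 4 weeks, and mt-Ta (0.0714) in hearts at 1.5 years against 14 weeks (edgeR). Of 10 differences between the tissues, mt-Nd5 (0.0522) and mt-Tt (0.311) were lost with the block, and mt-Tt (0.0631) with only postnatal day 1 and 4 weeks fitted. The block could not be fitted in fibroblasts where the ages share no numbers.

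Without 1 library the fibroblast log2 share ratio ranged from -1.88 to -0.054, and was -0.60 at the largest exact permutation p, 0.118. For heart rRNA over protein counts, mt-Rnr2 alone gave -0.035 and mt-Rnr1 alone 1.73. For fibroblast protein genes, counts without 1 library ranged from 1 to 7 (4 weeks against postnatal day 1), 0 to 3 (14 weeks against 4 weeks), 0 to 2 (1 year against 14 weeks), 0 to 3 (1.5 years against 14 weeks), 0 to 7 (1.5 years against postnatal day 1), and 6 to 11 (across ages). With at least 10 counts in every sample, which removes the near-zero genes, the counts against 14 weeks and at 14 weeks against 4 weeks were 0, and 7 across ages. For 1 year against 14 weeks (1 called), DESeq2 gave 3, library size only 2, no filter 2, and only the ages compared 11. Over all genes the main fit called 334, DESeq2 1161, library size only 315, no filter 366, and only the ages compared 2004. Only the ages compared gave 4 for 1.5 years against 14 weeks, and DESeq2 gave 1 for 1.5 years against postnatal day 1. Over all genes these called 818 of 16399 and 4438 of 21352, against 511 and 3061 of 18759 in the main fit. In hearts, 14 weeks against 4 weeks (1 called) gave 4 by DESeq2, 0 by library size only, 0 with a 2-fold minimum, 0 with only the ages compared, and 0 to 4 without 1 library. For 1.5 years against 14 weeks (2 called) the 2-fold minimum gave 1, and leaving out a library 0 to 4. Apart from the filters and the samples left out, the cause was not tested.

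By library size only, the part of all calls that were higher moved in hearts from 66.5% to 20.5% (4 weeks against postnatal day 1), 47.1% to 12.9%, 40% to 65.5%, 38.4% to 63.2%, and 48.9% to 18.8% (1.5 years against postnatal day 1), in the order of the comparisons. In fibroblasts it moved from 73.4% to 39.4% (1 year against 14 weeks), 70.1% to 36.9% (1.5 years against 14 weeks), and 60.4% to 42.4% (1.5 years against postnatal day 1). Adding the nuclear copies to the share, chosen after seeing the data, left it at -0.70 in fibroblasts and 0.80 in hearts (log2, 1.5 years to postnatal day 1). At this depth mt-Atp8 had at most 86 counts in any library, so that counting error is large there.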
